A study of Rattus norvegicus with 6 samples.

Results

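Complement is a set of plasma and tissue proteins that tag microbes, dying cells and synapses for removal. In the classical pathway C1q binds a target and switches on the proteases C1r and C1s. C1s then cuts C4 and C2 to build an enzyme that cleaves C3. The alternative pathway runs through factor B, the C1 inhibitor (Serping1) blocks C1r and C1s, and the C3a receptor (C3ar1) senses a cleavage fragment of C3. In the brain, C1q is made mainly by microglia, while astrocytes and fibroblasts can make C3, C1r, C1s and the C1 inhibitor.

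The set described here holds 9 complement genes, C1qa, C1qb, C1r, C1s, C2, C3, Cfb, Serping1 and C3ar1. Its members are the 12 probes whose single gene symbol in the platform annotation is one of these names, out of 33849 probes in the series table. C2, C3 and C3ar1 had 2 probes each and the other genes had 1. All 12 probes had enough values to be tested.

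Cells were cultured from the brainstem of rats of 2 strains, the spontaneously hypertensive rat (SHR), which was bred to develop high blood pressure, and its normotensive counterpart, the Wistar Kyoto rat (WKY). There were 3 single-colour CodeLink arrays per strain, and each array carried RNA of 1 pool of cells from 3 dishes. The labels give no treatment, age, sex or time in culture and tie no pool to a litter or culture day, so p-values measure the spread between these pools, which may be technical. No allele or transgene is named for either strain.

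The median signal before scaling lay between 439 and 571 intensity units per array, and correlations over probes between arrays of one strain were 0.969 to 0.98. Of the fixed marker lists, 13 of 16 measured microglia and macrophage genes, 9 of 10 astrocyte genes, 9 of 11 oligodendrocyte lineage genes, 5 of 8 neuronal genes and 8 of 11 fibroblast and meningeal genes had a mean signal above the median of all tested probes (516 units). For endothelial cells and pericytes this was 3 of 8, and for hepatocytes, the main source of plasma complement, 0 of 5. Each gene was counted at its brightest probe, and by that rule 8507 of all 12082 genes with 1 symbol lay above this median. The shares of the neuronal list and of the fibroblast and meningeal list were close to that of all genes. These counts alone do not show which cell types were present. In pooled cultures, fewer cells of a type and less RNA per cell cannot be told apart.

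The probes of the C1q chains lay near the top of the signal scale on every array, and of the 12 member probes they varied least over the arrays. The RefSeq table used here holds a promoter window for 5 of the 9 genes, C1qa, C1qb, C1r, C3 and C3ar1. The windows of C1qa and C1qb are shown because these neighbouring genes were bright and nearly level in both strains. Each runs from 250 bases before to 50 after the start of the gene, on the minus strand of the reference rat genome GRCr8 (not of SHR or WKY), at chr5:154419884-154420183 for C1qa and chr5:154407778-154408077 for C1qb. Capitals mark the only matches to the 6 searched motifs.
C1qa: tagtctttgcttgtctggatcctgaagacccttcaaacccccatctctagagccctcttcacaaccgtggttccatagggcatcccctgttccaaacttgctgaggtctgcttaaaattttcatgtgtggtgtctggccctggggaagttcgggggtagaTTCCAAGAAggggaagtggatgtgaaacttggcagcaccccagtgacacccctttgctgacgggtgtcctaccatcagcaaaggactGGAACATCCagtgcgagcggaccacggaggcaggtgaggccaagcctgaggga
C1qb: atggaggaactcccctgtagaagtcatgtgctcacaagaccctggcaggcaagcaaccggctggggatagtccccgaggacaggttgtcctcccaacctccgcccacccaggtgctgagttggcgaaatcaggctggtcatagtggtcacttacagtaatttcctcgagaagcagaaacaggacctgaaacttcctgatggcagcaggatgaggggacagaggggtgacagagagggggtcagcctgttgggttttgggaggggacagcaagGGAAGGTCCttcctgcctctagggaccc

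The motifs were searched on both strands of the 5 windows, and no match overlapped another. Positions count the first base of the gene as 0. The STAT-type motif TTCNNNGAA was found in C1qa, 90 to 82 bases before the start, and is held by 8.87% of all 33469 promoter windows of this length. The NF-kB-type motif GGANNTTCC was found on the reverse strand in C1qa, across the start itself, and in C1qb, 22 to 30 bases after it, and is held by 4.09% of all windows. The C/EBP-type motif TTGCNNNAA was found on the reverse strand in C1r, 84 to 76 bases before the start, and is held by 9.6% of all windows. The interferon motif GAAANNGAA (9.71% of windows), the PU.1-IRF composite GGAANNGAA (9.32%) and the PU.1 motif GAGGAAGT (2.42%) were in none of the 5. The letters were settled after other forms had been searched in the same windows, so these matches only describe the sequence.

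C1qa encodes the A chain of C1q, the recognition molecule of the classical pathway. Its quantile normalized intensity was 37088, 38852 and 35531 units in SHR 1 to 3 and 38044, 39209 and 37752 units in WKY 1 to 3. The strains overlapped, and the highest array exceeded the lowest by 1.10-fold. C1qb, the gene of the B chain, gave 34888, 32589 and 30176 units in SHR and 33061, 35384 and 34376 units in WKY, again with overlap. In log2 units C1qa differed by -0.05 ± 0.12 (SHR minus WKY, limma estimate ± SE), with a 95% interval of the SHR over WKY ratio from 0.798 to 1.18. For C1qb the difference was -0.08 ± 0.12, with an interval of the ratio from 0.772 to 1.17. Both probes sat close to the top of the scale, C1qa at 85.8% to 94.7% and C1qb at 72.9% to 85.5% of the highest value of a column (41388 units). A scanner limit would flatten differences there, and the files carry no saturation flag, so its part was not tested. C1qc, the gene of the C chain that lies between them in the RefSeq gene order, gave -0.10 ± 0.15.

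C1r and C1s encode the pair of proteases carried by C1q, and their genes are neighbours. C1s gave 1201, 1408 and 1306 units in SHR and 989, 780 and 1036 units in WKY. All 3 SHR values lay above all 3 WKY values. The mean log2 signal of the SHR pools was 10.35 ± 0.12 (SD, n = 3) against 9.86 ± 0.22 for the WKY pools, which differ by 0.49 ± 0.16 (SE), or 1.40-fold, with a 95% interval from 1.08 to 1.83. C1s was the 1 of 12 member probes with an unadjusted p under 0.05 in limma (7.65% of all probes), and with adjustment over all 33249 probes it did not pass (adjusted p = 0.575). Its unadjusted p was no longer under 0.05 without SHR 2 (difference 0.43), without SHR 3 (0.49) or without WKY 2 (0.36). The direction was the same in all 17 alternatives, with differences from 0.36 to 0.67.

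C1r did not follow C1s. Its intensity was 1938, 2926 and 2158 units in SHR and 1931, 1929 and 3533 units in WKY, with the strains overlapping and WKY 3 highest. The difference was -0.04 ± 0.29 in log2 units (ratio interval 0.60 to 1.59), and it was 0.26 without WKY 3. The mean of the 11 measured fibroblast and meningeal genes, each centred on its mean log2 signal, was -0.07, 0.44 and 0.56 in the SHR arrays 1 to 3 and -0.29, -0.19 and -0.45 in the WKY arrays, without overlap, as for C1s. The summed intensity of that list overlapped, at 28183 to 36148 units in SHR and 23366 to 29143 units in WKY. None of its 11 measured genes was listed at or below 0. At their brightest probe 4 of them had an unadjusted p under 0.05 in limma, all higher in SHR. Of all 12082 genes with 1 symbol counted in this way, 415 were higher and 412 lower. SHR lay wholly above WKY at 2 of the 11, and 3 had a difference below 0. By contrast, the summed intensity of 5 choroid plexus and ependymal markers did not overlap, at 9388 to 14835 units in SHR and 3039 to 5562 units in WKY. Of the 7 measured, 2 others, Clic6 and Aqp1, had a value not above 0. Gene by gene this list was mixed: SHR lay wholly above WKY at 3 of the 7 and wholly below at 1, and at an unadjusted p under 0.05 there were 2 higher in SHR (Ttr and Otx2) and 1 lower (Clic6, -0.74). The part of these cells in the C1s value was not tested.

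C2 encodes the protease that C1s cuts, and factor B (Cfb) is its counterpart in the alternative pathway. The genes are neighbours in the RefSeq gene order. Cfb gave 4559, 4938 and 2596 units in SHR and 1539, 3199 and 8629 units in WKY. The lowest and the highest of the 6 values were both WKY pools, 5.61-fold apart, so the spread within WKY took in all of SHR. Cfb had the widest range over the arrays of the 12 member probes. The log2 means were 11.92 ± 0.51 (SD, n = 3) in SHR and 11.77 ± 1.25 in WKY, and the difference of 0.15 ± 0.62 (SE) had a ratio interval from 0.392 to 3.16. Its direction depended on single pools. The difference turned to -0.44 without WKY 1 and to -0.02 without SHR 2, and it rose to 0.81 without WKY 3.

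The brighter probe of C2 ordered the outer arrays in the same way. It gave 17457, 14707 and 11560 units in SHR and 10820, 15056 and 18723 units in WKY, so WKY 1 was lowest, SHR 3 next and WKY 3 highest, as for Cfb. The range within WKY was 1.73-fold. The other C2 probe gave 14239, 15559 and 13717 units in SHR and 11070, 15559 and 15361 units in WKY, with WKY 1 again lowest and SHR 3 next. Strain differences were -0.01 ± 0.25 and 0.07 ± 0.17 in log2 units, with ratio intervals of 0.649 to 1.51 and 0.783 to 1.40.

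**Figure D1:**
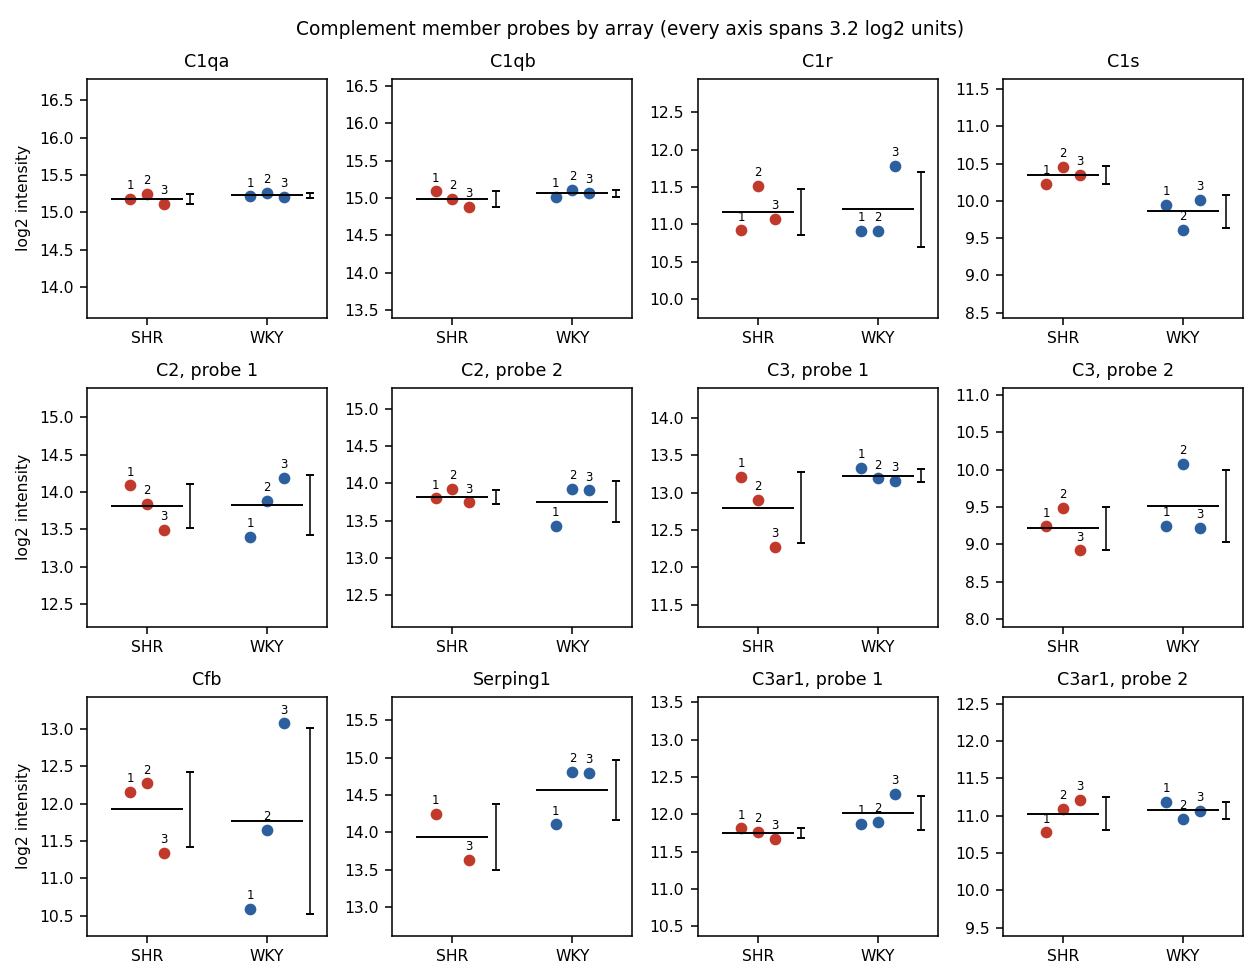
Each panel plots the log2 intensity of 1 member probe in the 3 SHR and 3 WKY arrays (points, numbered by replicate), with the strain mean as a line and the SD as a bar; probe 1 is the brighter probe of a gene. The C1qa and C1qb points lie almost level, the C1s points of SHR lie above those of WKY, and Cfb spans 2.49 log2 units within WKY.

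C3 encodes the central component of the cascade. Its brighter probe gave 9484, 7665 and 4967 units in SHR and 10317, 9353 and 9172 units in WKY. SHR 1 lay within the WKY range and SHR 2 and SHR 3 below it. The mean log2 signal of SHR was 12.80 ± 0.48 (SD, n = 3) against 13.23 ± 0.09 for WKY. The difference was -0.43 ± 0.25 (SE, adjusted p = 0.698 in limma). It was -0.17 without SHR 3. Without SHR 1 it was -0.64, with an unadjusted p under 0.05 and an adjusted p of 0.77. The dimmer probe gave 605, 720 and 484 units in SHR and 606, 1078 and 595 units in WKY, with a difference of -0.29 ± 0.28 that was -0.01 without WKY 2. SHR 3 was lowest at both probes, but the WKY pools did not keep their order between them.

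Serping1 encodes the C1 inhibitor, the serpin that inactivates C1r and C1s. It gave 19479 and 12661 units in SHR 1 and SHR 3 and 17647, 28691 and 28494 units in WKY. SHR 2 held a missing code, whose meaning is not stated, and was left out, so the SHR mean rests on 2 pools. SHR 1 lay above WKY 1, so the strains overlapped. The difference of -0.63 ± 0.31 in log2 units was the most negative of the member probes and did not pass (adjusted p = 0.686 in limma, ratio interval 0.374 to 1.11). It moved to -0.32 without SHR 3, and to -0.94 without SHR 1. Without WKY 1 it was -0.86 with an unadjusted p under 0.05 and an adjusted p of 0.426.

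C3ar1 encodes the receptor of the C3a fragment, found in the brain mainly on microglia. The brighter probe gave 3597, 3477 and 3262 units in SHR and 3747, 3822 and 4968 units in WKY. All SHR values lay below all WKY values, although SHR 1 and WKY 1 were close. The difference was -0.27 ± 0.16 in log2 units (adjusted p = 0.703 in limma), and it was -0.14 without WKY 3. The other probe gave 1754, 2186 and 2371 units in SHR and 2332, 1994 and 2145 units in WKY, which overlapped, with a difference of -0.04 ± 0.16. The separation at the first probe was therefore not seen at the second, and a test between the probes was not run.

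Over the 12 member probes, 0 passed an adjusted p of 0.05 in limma, as for all probes (0%). At an unadjusted p under 0.05 there was 1 member probe, C1s, against 7.65% of all probes (3.65% higher and 4.01% lower in SHR). The strains did not overlap at 2 of the 12, C1s (higher in SHR) and the brighter C3ar1 probe (lower in SHR), against 13.8% of all probes (6.35% with SHR above and 7.48% with SHR below). The median difference was -0.05 over the members and -0.01 over all probes. Of the member probes, 3 had a difference above 0 and 9 below 0, while all probes split into 16104 above and 17145 below.

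**Figure D2:**
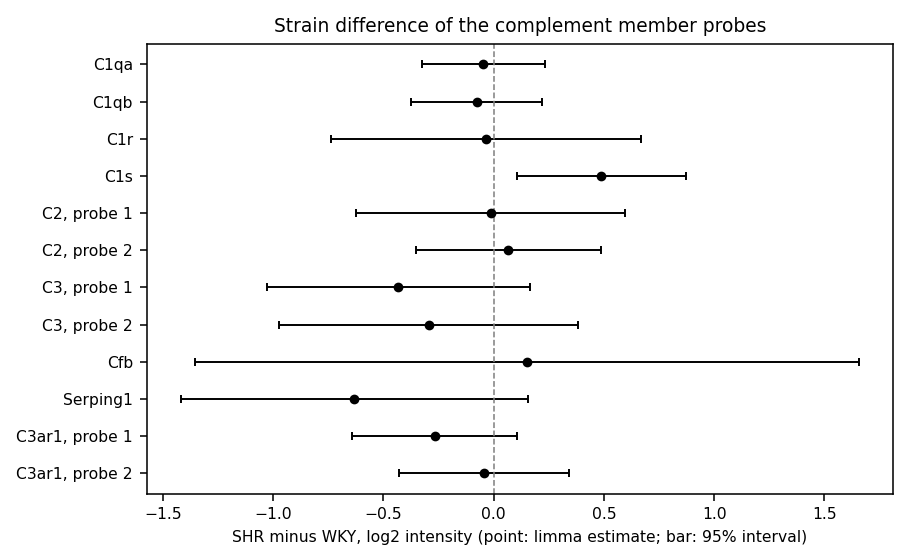
The plot gives SHR minus WKY in log2 intensity for the 12 member probes, with the limma estimate as a point and its 95% interval as a bar; the dashed line is no difference. The interval of C1s, from 0.11 to 0.87, is the one that leaves out 0, and that of Cfb is the widest.

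At 11 of the 12 member probes, all but C1s, the wider of the log2 ranges within a strain was larger than the difference between the strain means. The share of all probes that meet this rule was not counted, so it does not set the members apart. SHR 3 was the lowest array at 5 of 9 genes (C1qa, C1qb, C3, Serping1 and C3ar1, each at its brighter probe), and WKY 3 was the highest at 4 (C1r, C2, Cfb and C3ar1). WKY 1 was the lowest at C2 and Cfb and the highest at C3. WKY 2 was the highest at 3 (C1qa, C1qb and Serping1) and the lowest at 2 (C1r and C1s), and SHR 2 was the highest at C1s. Serping1 has no SHR 2 value. How often each array was lowest or highest over all probes was not counted. The mean centred log2 signal of the 8 members with values on all arrays was 0.08, 0.11 and -0.23 in SHR 1 to 3 and -0.22, -0.07 and 0.34 in WKY 1 to 3, with overlap. The wide spread of Cfb weighs most in these means. Pearson correlations over the 6 arrays, which come from only 2 strains, had a median of 0.337 over the 28 pairs of these 8 genes, from -0.639 for C1qb with C1s to 0.912 for C2 with Cfb.

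Interferons and inflammatory cytokines are known inducers of Cfb, C2 and Serping1. The centred mean of 27 interferon response genes was -0.17, 0.33 and -0.34 in SHR 1 to 3 against -1.09, 0.55 and 0.72 in WKY 1 to 3. The lowest was WKY 1, as for Cfb and C2, and the highest was WKY 3. Ifit1, an interferon-induced RNA-binding protein, had 63.1 units in WKY 1 and 2177 to 5580 units in the other arrays. Ifit3 ranged from 995 units in WKY 1 to 14917 in WKY 3, and Oasl, a protein of the antiviral response, from 1732 in WKY 1 to 14301 in WKY 3. Cfb and the brighter C2 probe were not at their highest in WKY 2, where Ifit3 stood at 10417 and Oasl at 13848 units. The other C2 probe was at its joint highest there, equal to SHR 2 (15559 units). Serping1, which has no SHR 2 value, was highest in WKY 2 (28691 units). The part of interferon signalling in the spread of the members was not tested.

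Of 18 measured genes of inducing cytokines and their receptors, 15 had a mean signal above the median of all tested probes, and of these 15 the 3 with the widest spread at their brightest probe were Il1b, Tnf and Tnfrsf1b. Il6, the gene of interleukin 6, was dimmer and was chosen after its values were seen. It was highest in WKY 3 (464 units against 184 to 245 units in the other arrays). Il1b, the gene of interleukin 1 beta, gave 1442, 1658 and 761 units in SHR and 787, 1810 and 3479 units in WKY. Tnf, the gene of tumor necrosis factor, gave 1904, 1933 and 1307 units in SHR and 1246, 1711 and 2768 units in WKY at its brightest probe. Il1b and this Tnf probe were lowest in SHR 3 and WKY 1 and highest in WKY 3, the same outer arrays as at Cfb. The other Tnf probes did not share this order. One was lowest in SHR 1 (1208 units) and highest in WKY 2 (1509 units), and the dimmest gave 231 units in WKY 1, 341 in WKY 3 and 252 in SHR 3, its second highest array. Tnfrsf1b, a receptor of tumor necrosis factor, gave 2784, 2913 and 2122 units in SHR and 2898, 3949 and 4700 units in WKY.

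**Figure D3:**
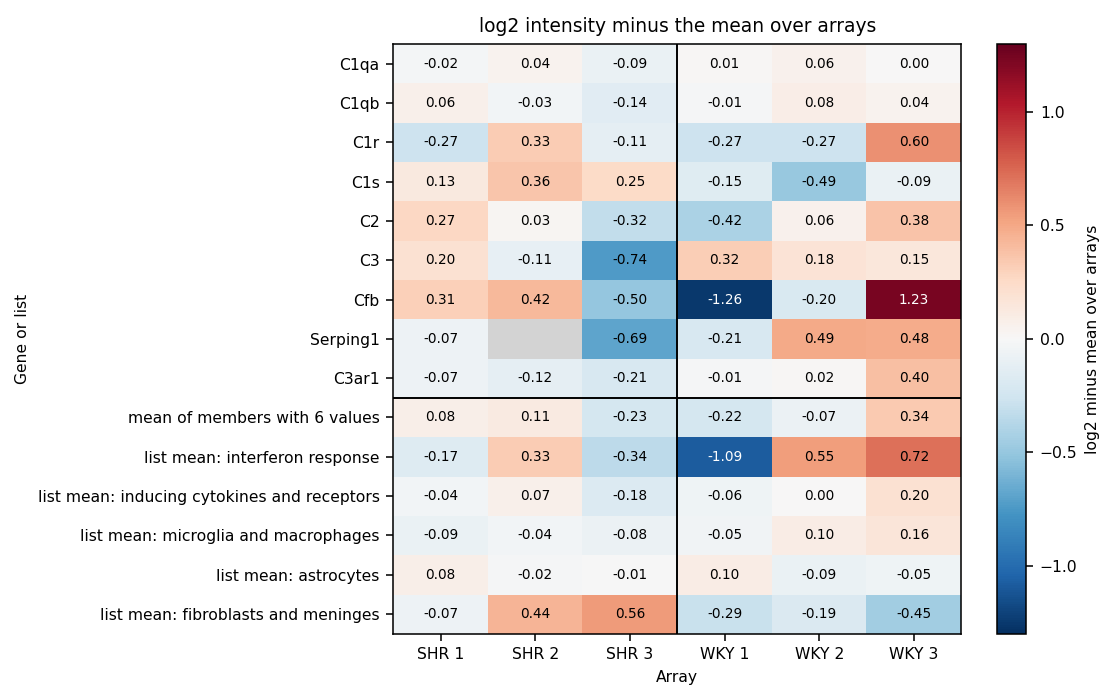
The map gives, for each array, the log2 intensity minus the mean over the arrays, for 9 members at their brighter probe, for the mean of 8 members and for 5 gene lists; the grey cell is the missing Serping1 value of SHR 2. Cfb, at -1.26 in WKY 1 and 1.23 in WKY 3, and the interferon list, at -1.09 and 0.72 there, show the widest swings.

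Among 1637 genes above the median signal and with an SD over the arrays of at least 0.3, those with the pattern most like the mean of the 8 members over the 6 arrays were Tnf (Pearson r = 0.988), Tnfrsf14 (0.983), Vgf (0.981), Fcgr3a (0.976), Cxcl9 (0.974), Cxcl11 (0.953), Ube2l6 (0.943) and Pde9a (0.943). Tnfrsf14 is a receptor of the tumor necrosis factor family, Fcgr3a an Fc receptor and Cxcl9 and Cxcl11 are chemokines. Each gene was taken at its brightest probe, and the other Tnf probes did not share the order of that probe. Cfb weighs most in the mean of the 8 members. With 6 arrays and so many genes, high values of r arise easily, so these are a description. The log2 signal of Cxcl9 was 11.91, 11.88 and 10.98 in SHR 1 to 3 against 10.49, 11.20 and 13.12 in WKY 1 to 3.

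The marker list of microglia, the main source of C1q in the brain, overlapped between the strains. Its centred mean over 15 genes was -0.09, -0.04 and -0.08 in SHR and 0.10 to 0.16 in WKY 2 and WKY 3, with -0.05 in WKY 1. The summed intensity was 186186 to 197136 units in SHR and 190005 to 213842 units in WKY, and 1 of 16 measured markers, Fcer1g, had a value not above 0. Of these 16 markers, 1 had an unadjusted p under 0.05, Lyz2, the macrophage lysozyme gene, with a difference of -1.08 ± 0.41 (adjusted p = 0.628 in limma). Lyz2 was lowest in SHR 3 (920 units), as were C1qa, C1qb, C3, Serping1 (no SHR 2 value) and the brighter C3ar1 probe. The other C3ar1 probe was highest in SHR 3 (2371 units). Cd74, the invariant chain of MHC class II, gave 649 units in WKY 1 and 2839 in WKY 3, while Tmem119, a marker of resident microglia, was highest in SHR 3 (4639 units) and gave 1777 to 2595 units elsewhere. Their part in the member values was not tested.

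The rest of the cascade was taken from 3 fixed lists of 48 other complement genes, of which 34 were measured. Counting each gene at its brightest probe, 2 were higher and 5 lower in SHR at an unadjusted p under 0.05 in limma, and 0 of 34 passed with adjustment over all probes. By that rule 415 were higher and 412 lower among all 12082 genes with 1 symbol. The median difference was -0.04 over the 34 genes and -0.001 over those 12082 genes.

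Of 15 other recognition molecules, proteases and terminal components, 1 was higher and 2 lower at an unadjusted p under 0.05. Colec12, a scavenger receptor of the collectin family that can start complement activation, gave 2272, 3871 and 3426 units in SHR and 1803, 1561 and 1277 units in WKY, without overlap. Its difference was 1.02 ± 0.24, a ratio of 2.03 with an interval from 1.35 to 3.05 (adjusted p = 0.506 in limma). The second Colec12 probe also had no overlap, at 0.84 ± 0.18. The values of the fibroblast and meningeal list and of the choroid plexus list stand beside C1s, and their part in the Colec12 value was not tested. C5, the start of the terminal pathway, gave 48.3, 31.6 and 64.0 units in SHR and 138, 98.2 and 93.8 units in WKY. These were dim spots, with a difference of -1.23 ± 0.29, and -0.16 ± 0.31 at its other probe. Fcnb, a ficolin of the lectin pathway, gave 98.0, 52.1 and 284 units in SHR and 341, 570 and 513 units in WKY, without overlap (-2.03 ± 0.60, adjusted p = 0.558 in limma). Its difference moved to -1.47 without SHR 2 and to -2.70 without SHR 3. C6, a component of the membrane attack complex (0.70 ± 0.32), and Masp1, a protease of the lectin pathway (0.39 ± 0.20 at its brightest probe), overlapped between the strains. The other Masp1 probes gave -0.16 ± 0.17 and 0.86 ± 0.47, also with overlap.

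Among 14 regulators, 1 was higher and 2 lower at an unadjusted p under 0.05. Cfi, the protease that degrades C3b, gave 307, 320 and 291 units in SHR and 240, 195 and 227 units in WKY, without overlap (0.48 ± 0.14, adjusted p = 0.538 in limma). Susd4, a membrane regulator, gave 527, 582 and 532 units in SHR and 694, 1000 and 832 units in WKY, without overlap (-0.61 ± 0.17), and its unadjusted p was no longer under 0.05 with no scaling between arrays (-0.42). Cpb2, a carboxypeptidase that inactivates C3a and C5a, was dim in both strains, at 41.9 to 64.2 units in SHR and 58.3 to 93.2 units in WKY, with overlap (-0.60 ± 0.25, adjusted p = 0.649 in limma). Its unadjusted p was no longer under 0.05 with the per-sample intensities quantile normalized anew (-0.59) or scaled by cyclic loess (-0.57), with an offset of 50 (-0.33) or with an intensity trend and robust prior, nor without SHR 1 (-0.51), SHR 2 (-0.49), WKY 1 (-0.43) or WKY 3 (-0.59). C1qbp (-0.35 ± 0.15), Vtn, the vitronectin gene (0.67 ± 0.37), and C4bpb (0.39 ± 0.25) overlapped or did not reach an unadjusted p of 0.05.

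Of 5 receptors, 1 had an unadjusted p under 0.05 at its brightest probe. Itgb2, the beta subunit that pairs with Itgam to form complement receptor 3, gave 2688, 3071 and 2871 units in SHR and 5004, 4303 and 6115 units in WKY. These values did not overlap, and the difference was -0.82 ± 0.17, which is 1.77-fold brighter in WKY (adjusted p = 0.386 in limma), the smallest p of the 34 genes. C5ar1, the C5a receptor, gave -0.51 ± 0.23 at its brighter probe, with overlap, and -0.76 ± 0.27 at the other, without overlap and with an unadjusted p under 0.05 (adjusted p = 0.597 in limma). Cr2, complement receptor 2, gave -0.41 ± 0.23 and Cd93 0.03 ± 0.12, both with overlap. Itgam, the partner of Itgb2, gave 3892, 2663 and 2397 units in SHR and 2769, 3414 and 6066 units in WKY. These values overlapped, with a difference of -0.40 ± 0.33. The summed intensity of the 5 receptor genes was 7607 to 9104 units in SHR and 10157 to 15486 units in WKY. Itgb2 and Itgam weighed most in it. The sum of 13 regulators also did not overlap, at 66923 to 80194 units in SHR and 82596 to 89272 units in WKY. Cd55 was left out there for a value not above 0. That of the 15 recognition molecules, proteases and terminal components overlapped, at 52148 to 58542 units in SHR and 55690 to 61916 units in WKY.

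**Figure D4:**
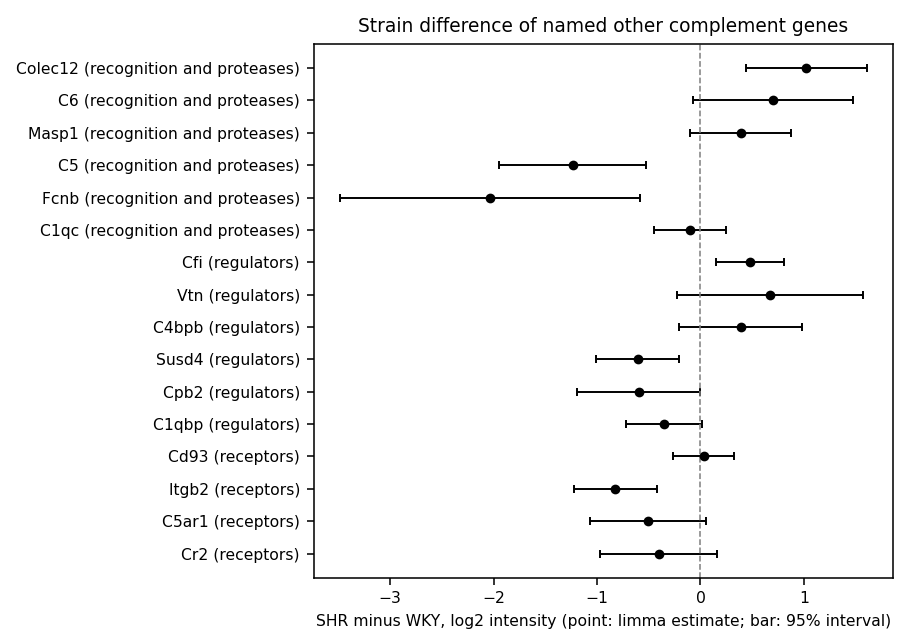
The plot gives SHR minus WKY in log2 intensity for the 16 named other complement genes at their brightest probe (point, limma estimate; bar, 95% interval), with the list of each gene in brackets. The intervals of Colec12 and Cfi lie above 0 and those of C5, Fcnb, Susd4, Cpb2 and Itgb2 below it; none passed with adjustment over all probes.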

How the data were processed

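RNA of 3 SHR and 3 WKY pools was measured on single-colour arrays. The deposited series table holds linear intensity per spot, background-subtracted in the CodeLink software, filtered near the negative controls and quantile normalized by the authors, per the series design text. Its columns share the same quantiles. The sources used here give no software version or genome build. A missing code fills 171 to 233 entries per array before normalization, and 615 entries per column of the series table are not above 0, for a cause that was not tested. The 615 were set to missing, log2 was taken with no offset, and probes were kept if one strain had all 3 values and the other no fewer than 2 (33249 tested, 600 not).

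limma 3.58.1 in R 4.3.3 (lmFit, eBayes, two-sided, Benjamini-Hochberg over all probes) gave SHR minus WKY. A probe is named only where the platform annotation gives 1 symbol. The genes named by rule are the members and up to 3 genes per direction of each other complement list by smallest p. They also include up to 3 per inducer or microglia list by widest spread among genes above the median signal. The 8 genes most like the members' mean complete them. Any other gene named, such as Il6 or Itgam, was chosen after its values were seen. Members and lists were chosen with earlier results of these data known. The code was tested on simulated data. Alternatives changed the scaling, offset, filters, prior, weights, pairing and arrays used. The number of arrays limits the precision.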

Additional observations from a re-analysis of the deposited data

How the results depend on the processing

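No member probe and none of the 34 other complement genes passed an adjusted p of 0.05 in any of the 17 alternatives in which it was tested. Over all probes the count was 0 and became 17 with an offset of 50, 5 with values on all 6 arrays, 18 without the dimmest 25% of probes, 28 with an intensity trend and robust prior, 10 with array weights and 13 at a threshold of 0.1. Leaving out single arrays gave between 0 and 2 member probes with an unadjusted p under 0.05, against 1. In a fit with a replicate block, 0 of all probes passed and 1 member probe, C1s, had an unadjusted p under 0.05. Same-numbered arrays correlated at 0.0011, 0.22 and -0.13 in their deviations, so the number was not used as a pairing. Small differences turned direction. With no scaling between arrays C1r gave 0.14, the brighter C2 probe 0.14 and the dimmer C3ar1 probe 0.13, where the median of all probes moved to 0.115. The brighter C2 probe gave 0.0033 with cyclic loess and Cfb -0.21 with array weights. Without single arrays the ranges were -0.21 to 0.26 for C1r, -0.22 to 0.17 and -0.094 to 0.15 for C2, -0.44 to 0.81 for Cfb, -0.14 to 0.081 for the dimmer C3ar1 probe and -0.014 to 0.081 for Cd93. Of the probes with an unadjusted p under 0.05, 47.6% were higher in SHR, against 33.6% with median centring and 64.6% with no scaling. The mean member signal of each array moved by less than the spread between replicates, both with median-centred per-sample intensities and with all probes of a gene averaged. Serping1 could not be tested with values on all 6 arrays. Dim genes such as C5, C6, Vtn, Cpb2 and Cr2 were not tested in the setting without the dimmest 25% of probes. The causes were not tested. Dim spots such as C5, Cpb2 and Cr2 limit what can be read from them.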
